A study of Canis lupus familiaris with 6 samples.

Results

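The genes described here are 5 chemokines, CCL2, CCL8, CCL20, CCL5 and CXCL8, and the atypical chemokine receptor ACKR3. They are 6 of the 1436 genes that could be named on the arrays, and 9 of the 43584 probes; CXCL8 has 4 probes and each of the other 5 genes has 1. They are a list of names chosen by measured values of these same arrays; which of the values is not stated, so all their values by arm and time are taken as used. Their differences between arms and between times are therefore given as a description, with no p-value.

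Messenger RNA was profiled on 6 one-colour Agilent dog arrays from MDCK-II cells, an epithelial line from dog kidney tubules, in which a tetracycline switch controls a short hairpin RNA against scribble, a gene for a cell polarity scaffold (scribKD cells). The groups with Tet received tetracycline at 5 µg/ml 6 h after plating at 154000 cells per well, and RNA was taken 30, 45 and 60 h later. The groups without Tet are cells of the same line, which also carry the hairpin, cultured for 30, 45 and 60 h without the drug. Each array holds RNA mixed from 3 wells, so there is 1 array for each arm and time and no replicate array of any condition. All cells given tetracycline carry the hairpin, so an effect of the drug itself and one of the hairpin cannot be told apart. The labels do not say whether the line is 1 clone. SCRIB has no named probe, and the depth of its knockdown was not analysed here.

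On each array 64.3% to 68.8% of spots were well above background and 0 were saturated, and values of different arrays correlated at 0.986 to 0.991 across probes. Probes spotted at least 5 times on an array, with a signal above 20, had a median SD between their spots of 0.07 to 0.09 on the log2 scale (21 to 24 probes per array). This covers spotting and scanning only, not the difference between cultures. Both 30 h arrays and the 45 h array without Tet lie on one slide, and the 45 h array with Tet and both 60 h arrays lie on the other. A difference between arms is thus within a slide at 30 and 60 h and across slides at 45 h. All 6 kidney tubule epithelial markers with a named probe (CDH1, KRT19, OCLN, TJP1, CLDN2 and MUC1) were well above background on all arrays, and their summed intensity was 53001 to 57769 with Tet and 61430 to 70020 without Tet, of which KRT19 alone gave 43046 to 47531 with Tet and 48921 to 58003 without Tet. Of 8 leukocyte markers with a named probe, CD4, CD8A, CD79A and CD34 were well above background on all 6 arrays. CD163 was so on some arrays, and MS4A1, TYROBP and CD28 on none. The summed intensity of the 8 was 625 to 793 with Tet and 609 to 684 without Tet. CD34 alone gave 478 to 642 of it with Tet and 454 to 532 without Tet.

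Chemokines are small secreted proteins that guide leukocytes along concentration gradients by binding G protein coupled receptors. CC and CXC chemokines are named after the spacing of their first cysteines. CCL2 and CCL8 are monocyte chemoattractants that act mainly through CCR2, CCL20 is the ligand of CCR6 on lymphocytes and dendritic cells, CCL5 attracts T cells and monocytes, and CXCL8 attracts neutrophils. ACKR3, also called CXCR7, binds CXCL12 and CXCL11, signals through arrestins without activating G proteins, and removes its ligands from the surroundings of the cell. Tubule epithelial cells can secrete several chemokines, commonly under the control of NF-kappaB.

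The comparison of the arms asks what changes in these transcripts with induction of the hairpin. CCL2, CCL8 and CCL20 were lower with Tet at each of the 3 times, by at least 2-fold, and their arms did not overlap. CCL5 was slightly lower at each time with arms that overlapped, CXCL8 showed no common direction, and ACKR3 was lower at 30 and 45 h and higher at 60 h. Values are the log2 processed signal minus the 75th percentile of the array, so that 0 is the signal of the probe at that percentile, and they rank samples for 1 probe, not one gene against another. In RNA of whole wells, fewer cells that make a transcript and less of it per cell cannot be told apart.

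**Figure D1:**
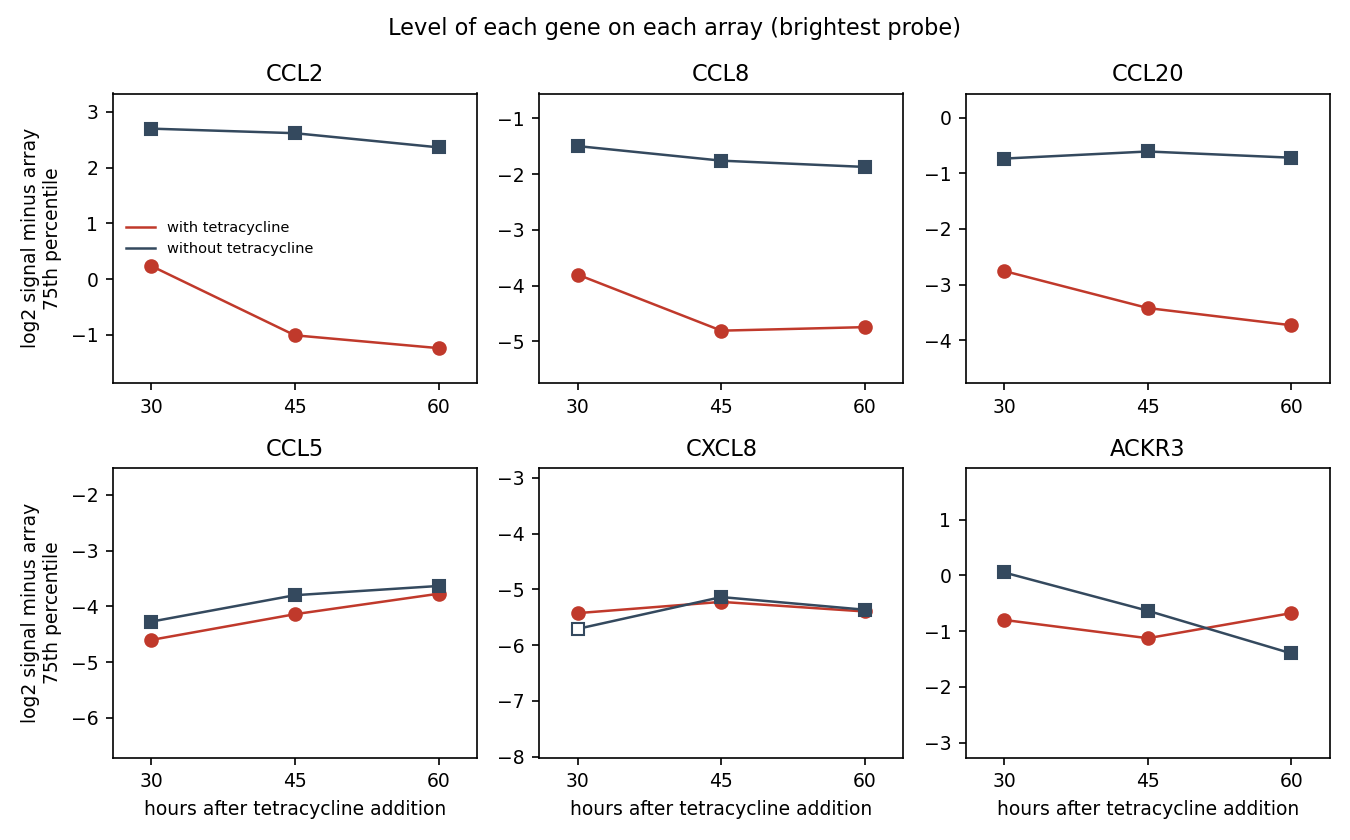
Level of each gene on each array by its brightest probe, as log2 signal minus the array's 75th percentile, against hours after tetracycline addition. Circles are arrays with Tet and squares arrays without Tet, open symbols are not well above background, and all panels span the same range of log2 units; for CCL2, CCL8 and CCL20 every circle lies below every square, and for ACKR3 the lines cross between 45 and 60 h.

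CCL2 stood at 0.24, -1.01 and -1.24 with Tet at 30, 45 and 60 h, against 2.70, 2.62 and 2.36 without Tet. In processed intensity these are 747, 307 and 246 with Tet, against 4139, 3773 and 3026 without Tet. The highest array with Tet lay 2.13 log2 units below the lowest array without Tet. The gap between the arms was therefore wider than the movement within an arm, which spanned 1.48 with Tet and 0.34 without Tet. The difference, with minus without Tet, was -2.46, -3.63 and -3.60, with a mean of -3.23 ± 0.66 (SD over the 3 times). From 30 to 45 h CCL2 moved by -1.25 with Tet and by -0.08 without Tet, and from 45 to 60 h by -0.23 with Tet and by -0.25 without Tet. The arms thus moved by similar amounts after 45 h, though that step is within a slide with Tet and across slides without Tet. The widening of the gap lay between 30 and 45 h, a step that crosses slides with Tet only. The mean over the 30 and 60 h pairs, each within a slide, was -3.03.

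CCL8 stood at -3.80, -4.81 and -4.74 with Tet, against -1.50, -1.76 and -1.87 without Tet. Its arms were 1.93 log2 units apart at their closest. The difference was -2.31, -3.05 and -2.87 (mean -2.74 ± 0.39, SD over the 3 times, and -1.36 with normexp background correction). The intensities with Tet, 45.5, 22.1 and 21.7, were at each time dimmer than those of CCL2 and CCL20, and the scanner's error estimate for them was 11.9% to 17.3% of the signal, against 10.1% to 10.2% without Tet (226, 182 and 161). As for CCL2, the larger step with Tet was from 30 to 45 h, at -1.01, and the step from 45 to 60 h was 0.06. Without Tet these steps were -0.26 and -0.11. In the RefSeq gene table CCL7 is the 1 gene between CCL8 and CCL2. CCL7, a further monocyte chemoattractant, was well above background on 0 of 6 arrays, so no difference is given for it.

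CCL20 stood at -2.75, -3.42 and -3.73 with Tet, against -0.74, -0.61 and -0.72 without Tet. The 3 arrays without Tet lay within 0.13 of each other, while those with Tet spanned 0.97, each later time being lower. The arms were 2.02 apart at their closest, and the difference was -2.02, -2.81 and -3.01 (mean -2.61 ± 0.52, SD over the 3 times). With Tet CCL20 moved by -0.31 from 45 to 60 h, where CCL8 moved by 0.06. The difference of CCL2 minus that of CCL8 was -0.16 at 30 h and -0.73 at 60 h, and minus that of CCL20 it was -0.45 and -0.60, so CCL2 had the widest gap of the 3. CCL8 had a wider gap than CCL20 at 30 and 45 h, and CCL20 a wider one than CCL8 at 60 h, by 0.13. With normexp background correction that order turned at 30 and 45 h, CCL20 having the wider gap at each time (mean -1.91, and -1.36 for CCL8).

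Measured against all features, 3 of the 6 genes were at least 2-fold lower with Tet at all 3 times, a size that 0.149% of 27580 features reached (41 features). None of the 6 was at least 2-fold higher at all 3 times, which 0.0435% of features were. The arms did not overlap for 3 of the 6 genes, with lower values with Tet, and this held for 10.4% of all features. Values were lower with Tet at all 3 times, at any size, for 4 of the 6 and for 21.8% of features. At single times, 1.71% of features were at least 2-fold lower at 30 h, 3.05% at 45 h and 4.6% at 60 h. Since the genes were chosen with these values known, nothing follows from their counts. A feature is here the brightest probe of a named gene or an unnamed probe, provided that 1 arm or both had it well above background on each of their 3 arrays, and all 6 genes passed that filter. Besides CCL2, CCL8 and CCL20, the named genes at least 2-fold lower at all 3 times were MMP9, a gelatinase, and TAF12, a subunit of a general transcription factor. By mean difference CCL2 ranked 4th, CCL8 8th and CCL20 11th from the lowest of the 27580 features, whose median was 0.01. With limma, 0 of 27580 features passed an adjusted p of 0.05 for the arms (0% called), while 6421 had an unadjusted p under 0.05 (23.3%). That fit has 2 residual degrees of freedom, and its error comes from how the difference varied between times. No condition has a replicate array, so change with time, slide and spread between cultures cannot be told apart in that error.

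**Figure D2:**
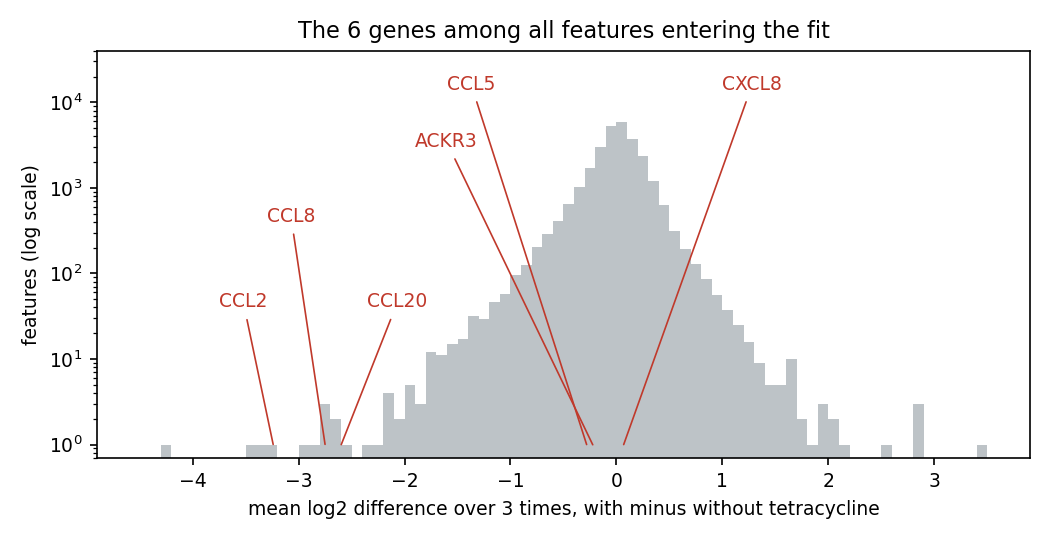
Number of features, on a log axis, by mean log2 difference over the 3 times, with minus without Tet, in bins of equal width, with lines that point to the 6 genes. CCL2, CCL8 and CCL20 lie in the sparse left tail at -3.23, -2.74 and -2.61, and CCL5, ACKR3 and CXCL8 in the dense centre at -0.27, -0.21 and 0.05.

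CCL5 moved with time more than with the arm. It stood at -4.60, -4.14 and -3.77 with Tet, against -4.27, -3.80 and -3.63 without Tet, so that in both arms each later time was higher. The change from 30 to 60 h was 0.83 with Tet (1.78-fold) and 0.64 without Tet (1.56-fold). A rise of at least 1.5-fold between these times was shown by 9.19% of features with Tet and by 12.2% without Tet, and CCL5 was the 1 gene of the 6 to show it in both arms. The 30 h and 60 h arrays lie on different slides, so time and slide cannot be told apart in these changes. At equal times CCL5 was lower with Tet by -0.33, -0.34 and -0.14 (mean -0.27 ± 0.11, SD over the 3 times, and -0.08 with normexp background correction). The arms overlapped, since 60 h with Tet was above 30 and 45 h without Tet. Its intensity was 26.1 to 42.5 with Tet and 32.9 to 47.4 without Tet, well above background on all arrays but dim.

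The difference of ACKR3 turned round between the early and the late time. It stood at -0.80, -1.13 and -0.67 with Tet, against 0.05, -0.63 and -1.40 without Tet. In intensity these are 365, 284 and 364 with Tet, against 662, 397 and 223 without Tet. Without Tet the level was lower at each later time, with a change of -1.45 from 30 to 60 h (2.74-fold). With Tet it moved by 0.12 between the same times. In both arms the arrays of these times lie on different slides, so time and slide cannot be told apart in these changes. A fall of at least 1.5-fold between 30 and 60 h was shown by 7.96% of features with Tet and by 7.73% without Tet. The difference, with minus without Tet, was thus -0.85 at 30 h (1.80-fold), -0.49 at 45 h (1.41-fold) and 0.72 at 60 h (1.65-fold), a mean of -0.21 ± 0.83 (SD over the 3 times), or 0.12 without the 30 h pair. The 30 and 60 h pairs, which differ in direction, each lie within 1 slide. In order of level, the array at 30 h without Tet was highest and that at 60 h without Tet lowest, and all 3 arrays with Tet lay between them. The arrays at 45 h without Tet, 60 h with Tet and 30 h with Tet lay within 0.16 of each other. With 1 array per condition the change of direction has no replicate check.

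CXCL8 was dim, and its 4 probes did not give 1 pattern. Its brightest probe stood at -5.43, -5.22 and -5.40 with Tet, against -5.71, -5.14 and -5.37 without Tet, and was not well above background at 30 h without Tet. The difference was at least 1.09-fold higher with Tet at 30 h, then -0.09 at 45 h and -0.03 at 60 h, a size at which other scalings turn the sign at 60 h. The second probe had an intensity of 27.5 at 30 h and 22.8 at 60 h without Tet, was well above background on these 2 arrays, and was between 1.98 and 2.53 on the other 4. At 30 h it was at least 2.48-fold lower with Tet and the bound for 60 h is 1.96-fold, also lower; neither array measured it at 45 h. The other 2 probes were well above background on 0 of 6 arrays. No direction is given for CXCL8.

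**Figure D3:**
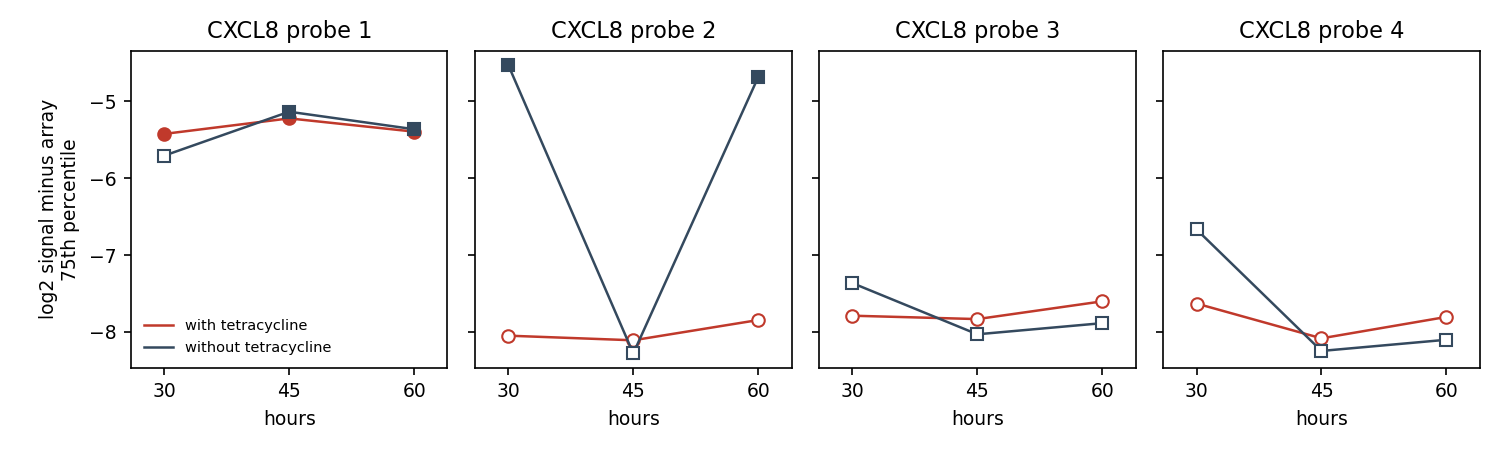
Log2 signal minus the array's 75th percentile for the 4 CXCL8 probes, from the brightest to the dimmest on average, against hours after tetracycline addition. Circles are arrays with Tet and squares arrays without Tet, and open symbols are not well above background: the first probe stays between -5.71 and -5.14, the second is raised on 2 arrays without Tet, and the other 2 have open symbols throughout.

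Across the 6 arrays CCL2, CCL8 and CCL20 followed one pattern. Pearson's r was 0.997 between CCL2 and CCL8, 0.995 between CCL2 and CCL20 and 0.992 between CCL8 and CCL20 (6 arrays). For these genes the arrays form 2 separate clusters, the arms, so r largely restates the gap between arms and is a description. With CCL2, r was 0.17 for CCL5, 0.28 for ACKR3 and -0.21 for CXCL8. Among 172 other named genes with a range of at least 1 log2 unit and at least 3 arrays well above background, the 5 most like CCL2 were LMAN2, a lectin of the secretory pathway (r = 0.985), TAF12 (0.984), the nucleoside transporter SLC29A1 (0.977), the prostaglandin E synthase PTGES (0.962) and the growth factor BMP4 (0.955). LMAN2 stood at 4.76, 4.43 and 4.30 with Tet, against 5.30, 5.22 and 5.05 without Tet, differences of -0.54, -0.78 and -0.76. PTGES had differences of -0.34, -0.89 and -1.08, with minus without Tet. These genes share the pattern and not the size, since each differed far less than CCL2. The 3 most like CCL8 were TAF12 (0.991), SLC29A1 (0.981) and LMAN2 (0.977), and the same 3 genes led for CCL20 (0.986, 0.979 and 0.969).

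CCL5 was most like the gap junction gene GJB2 (r = 0.938), the glycine cleavage gene AMT (0.937) and the organic cation transporter SLC22A2 (0.935), all of which were higher at each later time in both arms. GJB2 stood at -2.88, -2.48 and -1.87 with Tet, against -2.26, -1.45 and -1.33 without Tet. ACKR3 was most like CSF2, which encodes the growth factor GM-CSF (0.884), followed by ODAM (0.848), which was well above background on 3 arrays only, and the kynurenine hydroxylase gene KMO (0.837). CSF2 stood at 3.13, 2.77 and 3.61 with Tet, against 3.69, 3.07 and 2.16 without Tet. Its difference was -0.56, -0.30 and 1.45, turning round as that of ACKR3 did, and its second probe gave -0.59, -0.27 and 1.51. For CXCL8 the likest genes were GHRL (0.794), AP3M2 (0.774) and ZNF252 (0.688), lower values than for any other gene of the 6. Both GHRL and AP3M2 were well above background on 3 arrays only.

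Among the other chemokines on the arrays, CXCL10 was lower with Tet at all 3 times and CCL27 higher at all 3. Besides the 5 described, 17 chemokine ligands had a named probe: 5 entered the fit, 4 were well above background on some arrays only, and 8 on none. Of those 5, 1 was lower at all 3 times, as 21.8% of all features were, 1 was higher, as 27.7% were, and 3 had no common direction. Their median mean difference was -0.11, against 0.01 over all features. The adjusted threshold of limma was passed by 0 of the 5, but also by 0 of all 27580 features, so it does not set them apart. CXCL10, an interferon-induced attractant of T cells, stood at -3.56, -3.77 and -5.15 with Tet, against -2.79, -2.61 and -3.23 without Tet. Its second probe was lower at each time too (-0.84, -0.95 and -1.51). The mean difference of CXCL10 was -1.28, and with normexp background correction it was -0.59, with -0.63 at 45 h and -0.72 at 60 h. CCL27, a skin T cell chemokine, stood at 0.98, 1.36 and 2.10 with Tet, against 0.77, 0.91 and 0.88 without Tet, so its difference was 0.21, 0.45 and 1.22.

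CCL17, a ligand of CCR4, stood at 5.04, 4.31 and 4.39 with Tet, against 5.20, 4.72 and 4.21 without Tet, and its arms overlapped. CCL4, an attractant of monocytes and T cells, stood at -3.22, -4.71 and -5.10 with Tet, against -4.74, -3.77 and -5.27 without Tet, lower at each later time with Tet, and with a difference that changed sign between times. CX3CL1 had differences of -0.30, 0.03 and -0.06, the last 2 turning sign under another scaling. Several ligands were well above background on 1 array only. CCL3 was so at 30 h without Tet, where it was at least 3.57-fold lower with Tet. CXCL12, a ligand of ACKR3, was so at 45 h with Tet, at least 4.10-fold higher than without Tet. Its intensity was 37.4 on that array and 1.94 to 6.47 on the others, and the 45 h pair lies across slides. CCL19 was well above background only at 60 h with Tet (at least 2.30-fold higher), as was CCL28 (at least 1.59-fold higher).

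**Figure D4:**
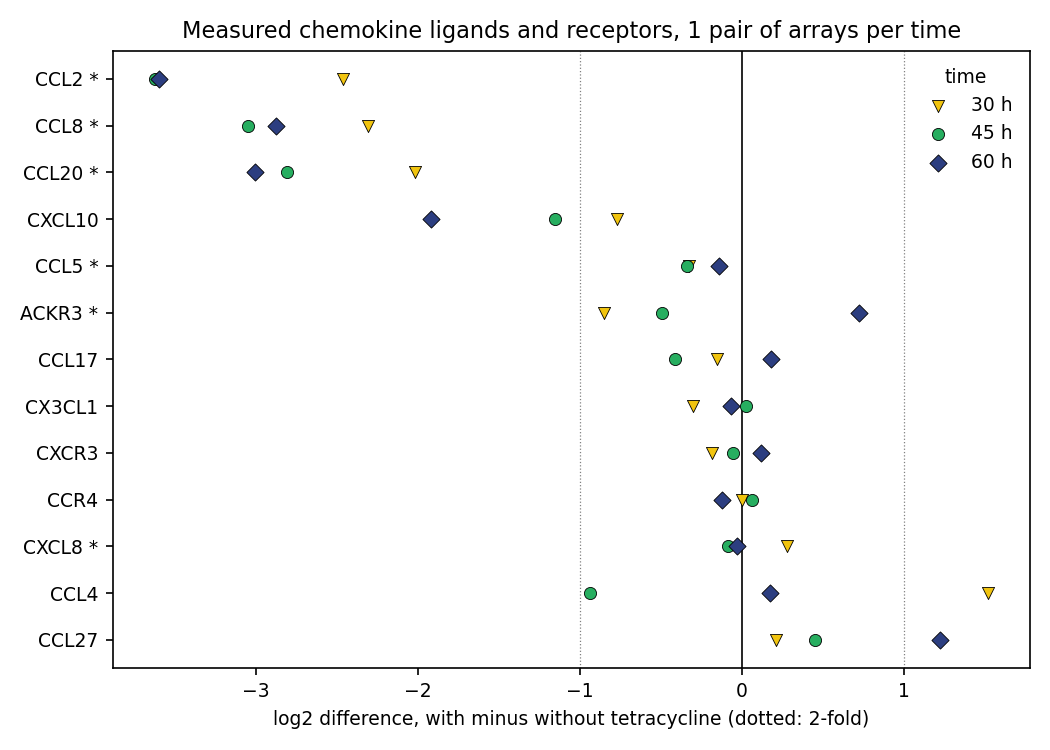
Log2 difference, with minus without Tet, at 30, 45 and 60 h for the 10 chemokine ligands and 3 receptors that entered the fit, 1 pair of arrays per point; stars mark the 6 genes described and dotted lines 2-fold. CCL2, CCL8 and CCL20 lie beyond 2-fold at all times, CXCL10 at 45 and 60 h (not so with normexp background correction), and ACKR3 lies on both sides of 0.

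Most chemokine receptors with a named probe were not well above background. Besides ACKR3, 6 receptors with a named probe were described, of which CCR1, CCR3, CCR9 and CX3CR1 were well above background on 0 of 6 arrays. CCR4 had differences of 0.00, 0.06 and -0.13, and CXCR3, the receptor of CXCL10, of -0.19, -0.06 and 0.12, so neither had a common direction over time. CCR2, CCR6, CXCR2 and CXCR4 had no named probe and were not analysed here. Of the listed ligands and partners of ACKR3 other than CXCL12, adrenomedullin, ADM, a peptide that ACKR3 binds in mice, was measured. It stood at 1.64, 2.08 and 2.83 with Tet, against 2.12, 2.47 and 3.44 without Tet, lower with Tet at each time by -0.48, -0.39 and -0.61 and higher at each later time in both arms.

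**Figure D5:**
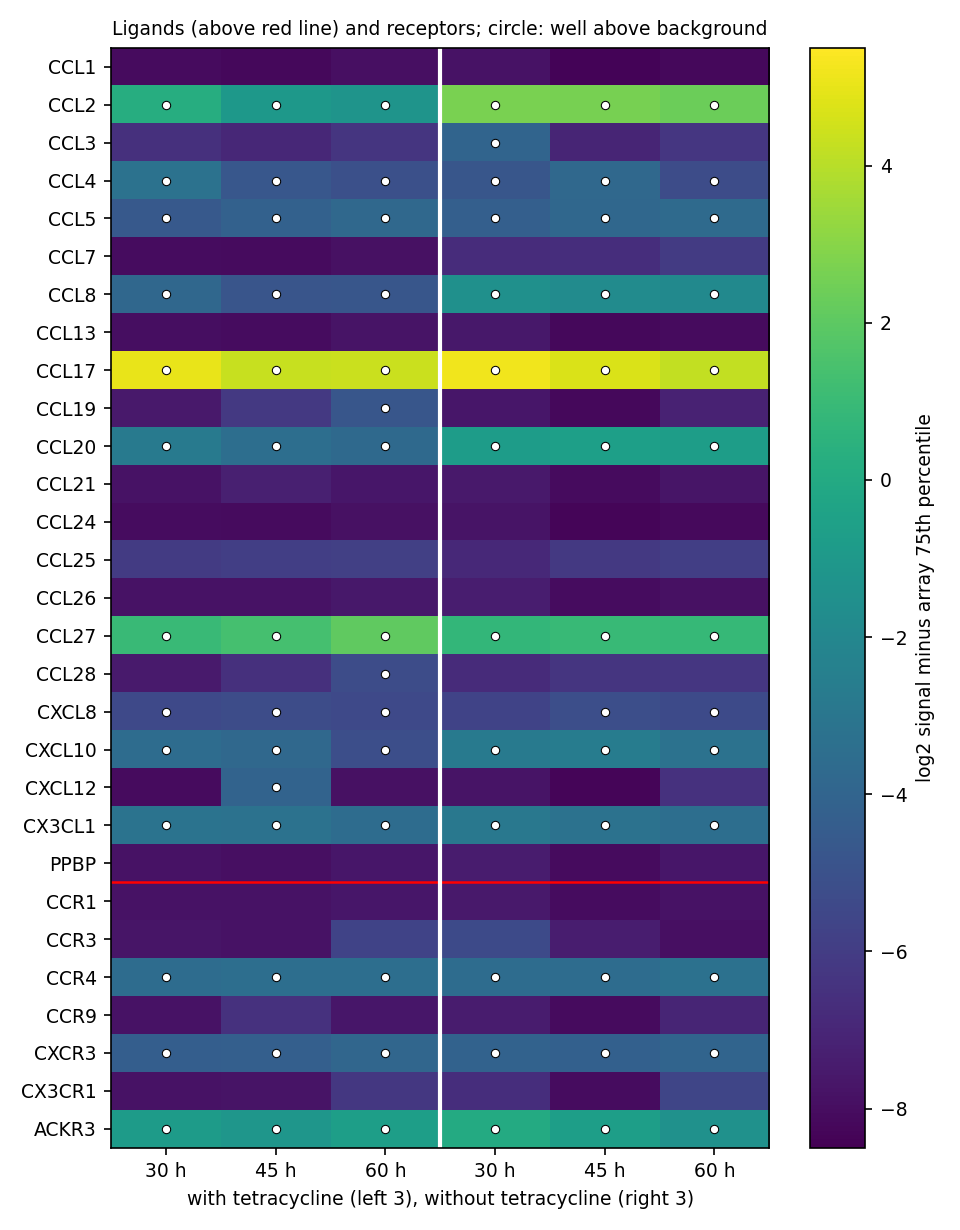
Log2 signal minus the array's 75th percentile for the 22 chemokine ligands, above the red line, and 7 receptors with a named probe, on the 3 arrays with Tet (left) and the 3 without Tet (right); a circle marks a signal well above background. Colours compare arrays within a row, and the rows of CCL2, CCL8 and CCL20 are darker on the left than on the right.

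Among inducers and regulators of chemokine transcription, NFKB1 and BIRC3 were higher with Tet at all 3 times. Of 14 with a named probe 7 entered the fit, 4 of them higher with Tet at all 3 times, as 27.7% of all features were, 1 lower and 2 mixed. IL17A and LTB entered it through 1 arm only, so these counts do not describe the list. The adjusted threshold of limma was passed by 0 of the 7, but also by 0 of all 27580 features. NFKB1, which encodes an NF-kappaB subunit, stood at 2.23, 2.51 and 2.77 with Tet, against 2.13, 2.23 and 2.32 without Tet, and both of its probes were higher at each time. BIRC3, an NF-kappaB target that inhibits apoptosis, stood at -1.14, -0.85 and -0.79 with Tet, against -1.51, -1.77 and -1.95 without Tet. The other 2 that were higher, LTA and IL17A, differed by at most 0.08, and their sign at 30 h turned under another scaling, as did that of LTA at 45 h. The lower gene was LTB, a TNF family ligand held at the membrane, well above background with Tet at 30 h only, at an intensity of 13.8. Its difference was -0.71 at 30 h, with bounds of 1.79-fold for 45 h and 1.65-fold for 60 h, both lower. The mean difference of LTB, -1.56 with dim signals included, was -0.26 with normexp background correction. TNF itself had differences of -0.23, 0.10 and -0.13, its sign at 30 h turning under another scaling. IL1A, IL1B and IL6 were well above background on 0 of 6 arrays.

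Among genes of leukocyte adhesion, ICAM1 was higher with Tet. ICAM1, an adhesion molecule that binds leukocyte integrins, stood at 3.48, 3.53 and 3.48 with Tet, against 3.34, 3.01 and 2.41 without Tet. Both of its probes were higher with Tet at each time, by 0.14, 0.52 and 1.07 on the brighter one, and the arms did not overlap there, as for 11.7% of features in that direction. Of the 4 adhesion and recruitment genes that entered the fit, ICAM1 was higher and CD47 lower at all 3 times (-0.08, -0.31 and -0.32). CSF2 had no common direction. SELE entered the fit through the arm with Tet only, and differed by -0.23 at 45 h and -0.41 at 60 h. At 30 h without Tet SELE was not well above background, and the sign of its difference there turned under another scaling. MMP9, which can cleave chemokines, stood at -2.68, -5.40 and -3.49 with Tet, against -1.30, -2.28 and -1.40 without Tet. Its second probe, also well above background on all arrays, had a mean of -2.01 for the difference. On the brighter probe this mean was -2.20, and -1.24 with normexp background correction.

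Several markers of fibroblasts and epithelium also separated the arms on their brightest probe, with differences under 2-fold there at each time. Among leukocyte markers with a value, CD4 differed by -0.14, 0.25 and 0.11, CD8A by -0.09, 0.15 and -0.16, CD79A by -0.14, -0.13 and -0.06 and CD34, also a marker of endothelium, by -0.08, 0.49 and 0.08. The signs of CD8A and CD79A at 60 h turned under another scaling. CD163, a macrophage marker, was well above background on 1 array with Tet and 2 without Tet. Of 5 fibroblast markers with a named probe, DCN was well above background on 0 of 6 arrays. COL1A1 was higher with Tet at each time (0.26, 0.70 and 0.82, mean 0.59, and 0.33 with normexp background correction) and vimentin, VIM, lower (-0.15, -0.90 and -0.96), and the arms did not overlap for either. On their brightest probes COL1A2 differed by 0.21, -0.06 and -0.11 and PDGFRB by 0.02, 0.16 and -0.23, neither with a common direction. The sign of COL1A2 at 45 h turned under another scaling. A second PDGFRB probe, well above background on all arrays, was higher with Tet at each time (0.60, 0.47 and 0.36). The summed intensity of the 5 fibroblast markers was 93224 to 190567 with Tet and 182658 to 212611 without Tet, nearly all of it VIM. Of the endothelial markers VWF differed by -0.13, 0.09 and -0.06 and KDR by -0.03, 0.29 and 0.53. By brightest probe, 3 of the 6 epithelial markers were lower with Tet at all 3 times, 1 was higher and 2 were mixed. Over all features, 21.8% were lower and 27.7% higher at all 3 times. The arms did not overlap for 10.4% of features in the lower direction and for 11.7% in the higher. MUC1 differed by -0.37, -0.75 and -0.53, and KRT19 by -0.28, -0.34 and -0.13, with arms that did not overlap. The brighter probe of TJP1 was lower too (-0.31, -0.34 and -0.13), while its second probe, well above background on all arrays, differed by -0.26, 0.11 and 0.23. OCLN was higher (0.11, 0.12 and 0.16), again with no overlap, CDH1 differed by -0.01, 0.06 and 0.51, and CLDN2 by 0.06, -0.38 and -1.64. A second CLDN2 probe, well above background on all arrays, was lower at each time, by -0.09, -1.05 and -2.01. The part of these genes in the differences of the chemokines was not tested.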

How the data were processed

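Spot intensity on a linear scale was deposited by the authors from Agilent Feature Extraction 11.5.1.1, named in the submitters' processing notes and the file headers; per the headers it is background-subtracted and detrended, with build CanFam3.1. The deposited series matrix holds the same intensity times 1 factor per array, 2.30 to 2.62, whose origin the sources used here do not give. Control spots and spots marked as outliers were left out, spots of a probe were averaged, and 19 of 43603 probes that lacked a spot on some array were removed. The processed signal was put on a log2 scale and each array's 75th percentile subtracted. Names were given by accession, without version, from a RefSeq gene table (assembly UU_Cfam_GSD_1.0), which served for names and gene order only; 2325 probes received a gene symbol. A gene was represented by its brightest probe.

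Where 1 array of a pair was not well above background, a bound ("at least N-fold") was taken against the dim array, using either the probe's own signal there or, if higher, the faintest signal that counted as well above background. The arms were fitted with limma 3.58.1 in R 4.3.3 (lmFit, eBayes, time as a block, two-sided, Benjamini-Hochberg), tested on simulated data. Scaling, background correction, detection filter, prior, time term and left-out pairs were varied. normexp used median spot signals with an offset of 50. The number of arrays limits the precision.

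Members and lists were chosen with earlier results of these data known. Up to 4 genes per list were named by mean difference, and the 5 (CCL2) or 3 most alike genes by Pearson's r. CX3CL1, CCL3, CCL19, CCL28, CXCL12, LTA, IL17A, CDH1, OCLN and the genes without a value were named beyond that rule, after their values were seen. One chemokine receptor of the lists is not reported here.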

Additional observations from a re-analysis of the deposited data

Results flagged for a closer look

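ACKR3 moved in opposite directions at 2 times: the difference, with minus without Tet, was -0.85 at 30 h and 0.72 at 60 h. CCL4 did so as well, with 1.52 at 30 h and -0.94 at 45 h. Each value rests on 1 pair of arrays, and the difference between the times was not tested. No condition has enough arrays for a check of single arrays that stand apart from their group.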

How the results depend on the processing

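The mean differences of CCL2, CCL8, CCL20, CCL5 and ACKR3 kept their sign with the series matrix values, with scaling by quantile or by median, and with normexp, which adds an offset of 50 to every spot and so draws dim values together. Under normexp they were -1.36 for CCL8, -1.91 for CCL20 and -0.084 for CCL5, while CXCL8 stood at -0.02. Averaging the 4 CXCL8 probes gave -0.57, and its difference at 30 h was -3.52, -0.42 and -0.96 on its 3 dimmer probes. These are not measured differences: neither signal was well above background on the last 2 of these probes, and on the first of them the signal with Tet was not, so that it gives a bound only.

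Leaving out each pair of arrays in turn, the mean difference lay between -3.62 and -3.03 for CCL2, -2.96 and -2.59 for CCL8, -2.91 and -2.41 for CCL20, and -0.33 and -0.23 for CCL5; it turned sign for CXCL8 (-0.06 to 0.13) and for ACKR3, at -0.67 without the 60 h pair and 0.12 without the 30 h pair. Features at least 2-fold lower at all 3 times numbered 15 with normexp, 77 without a detection filter and 218 at 1.5-fold, against 41; those higher numbered 0, 34 and 96, and 2 with detection on all 6 arrays, against 12. The count past an adjusted p of 0.05 (limma), 0 here, was 54 with normexp, 17 with no term for time, 16 with a trended and robust prior, and 0 to 1 when a pair was left out. The fit pairs the arms by time, which is its block; the labels give no replicate numbers to pair by. Dim signals limit the differences of CXCL8, CCL5 (intensity 26.1 to 42.5 with Tet and 32.9 to 47.4 without Tet) and CCL8 (21.7 to 45.5 with Tet).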
